A study of Mus musculus with 14 samples.

Results

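The colony-stimulating factor (CSF) receptor axis was followed through 6 genes: the receptor gene Csf1r, its ligand genes Csf1 and Il34, and the receptor genes Csf2ra, Csf2rb and Csf3r. With earlier results of these data known, the genes were chosen by name from the authors' series-wide table. They were matched by gene identifier to the expected counts of each library. They are 6 of 47729 gene identifiers in the files. Of the 14279 genes with enough reads to be tested, 5 belong to the axis, since Il34 fell below the filter on low counts.

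The series profiled retinal microglia, the resident macrophages of the retina, with SMART-Seq2, which copies the RNA of small cell numbers into cDNA along its full length. Cells were sorted as CD11b+, Ly6c- and Fcrls+ from wild-type C57BL/6 mice aged 12 weeks, with 1 library per retina and 100 to 600 cells per retina. The 14 libraries form 4 groups. Microbead libraries (n = 3) came from retinas of microbead-injected eyes, which the labels call glaucoma. Contralateral libraries (n = 3) came from eyes contralateral to a microbead injection, sham libraries (n = 4) from sham-injected eyes, and naive libraries (n = 4) from eyes with no treatment. Sex, eye pressure, nerve damage and the time between injection and sorting are not given in the sources used here. No label says which retinas came from the same mouse, so p-values measure the spread between retinas.

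CSF1R is a receptor tyrosine kinase of the cell surface, and microglia need its signal to survive and to maintain their numbers. It has a pair of unrelated ligands, CSF1, which many cell types make, and IL-34, which neurons make, in the retina among others the ganglion cells. The receptors for GM-CSF and G-CSF belong to another family, the cytokine receptors without a kinase of their own: CSF2RA binds GM-CSF, CSF2RB is the beta subunit it shares with the receptors for IL-3 and IL-5, and CSF3R binds G-CSF and is best known from neutrophils.

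Library totals ran from 1340512 to 13995779 reads assigned to genes. Microbead 1, the shallowest, had reads in 10167 genes and contralateral 2 in 10306, whereas each of the other 12 libraries had reads in at least 13472 genes. The microbead libraries also held relatively more of short than of long transcripts. The median log2 level against naive was taken over genes of at most 1000 bases and over genes of more than 4000 bases, and the difference was 1.86, 0.76 and 1.26 in the microbead libraries. It was 0.46, 0.98 and -0.27 in the contralateral libraries, -0.05 to 0.14 in the sham libraries and -0.26 to 0.15 in the naive libraries. Among the sort markers, Itgam (CD11b) and Fcrls had reads in every group, and the Ly6c genes Ly6c1 and Ly6c2 had none in any library. Levels within a gene are given as CPM, counts scaled to library size and TMM factors, and levels between genes as the deposited FPKM, which is scaled to length. A test is called passed where the adjusted p-value of edgeR's quasi-likelihood test is below 0.05.

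None of the 5 tested members passed in any of the 6 pairs of groups. Over all genes the share that passed was 0.014% in microbead against sham, 0.21% in microbead against naive and 0.028% in microbead against contralateral. It was 0% in each of the other 3 comparisons, where 694, 740 and 380 genes had an unadjusted p below 0.05 for contralateral against sham, contralateral against naive and sham against naive. At an unadjusted p below 0.05, 1 of 5 members stood out in each microbead comparison, always Csf1r, against 9.75% of all genes for sham, 10.5% for naive and 11.5% for contralateral. The same count was 1 of 5 for contralateral against sham (4.86% of all genes), 2 of 5 for contralateral against naive (5.18%) and 0 of 5 for sham against naive (2.66%). Groups did not overlap for 1 of 5 members in microbead against sham (12.2% of all genes), 2 against naive (11.8%) and 1 against contralateral (10.8%). They did not overlap for 0 of 5 in contralateral against sham (5.92%), 1 in contralateral against naive (6.21%) and 0 in sham against naive (2.98%). In the joint test, 2 of 5 members had an unadjusted p below 0.05, Csf1r and Csf2rb, against 8.17% of all genes. The DESeq2 Wald test called 1 of 5 members in microbead against contralateral, again Csf1r, beside 5.11% of the genes to which it gave an adjusted p, and none in the other 5 comparisons. Its share was 3.6% for microbead against sham, 4.59% against naive, and 0.426%, 0.462% and 0.188% for contralateral against sham, contralateral against naive and sham against naive.

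**Figure D1:**
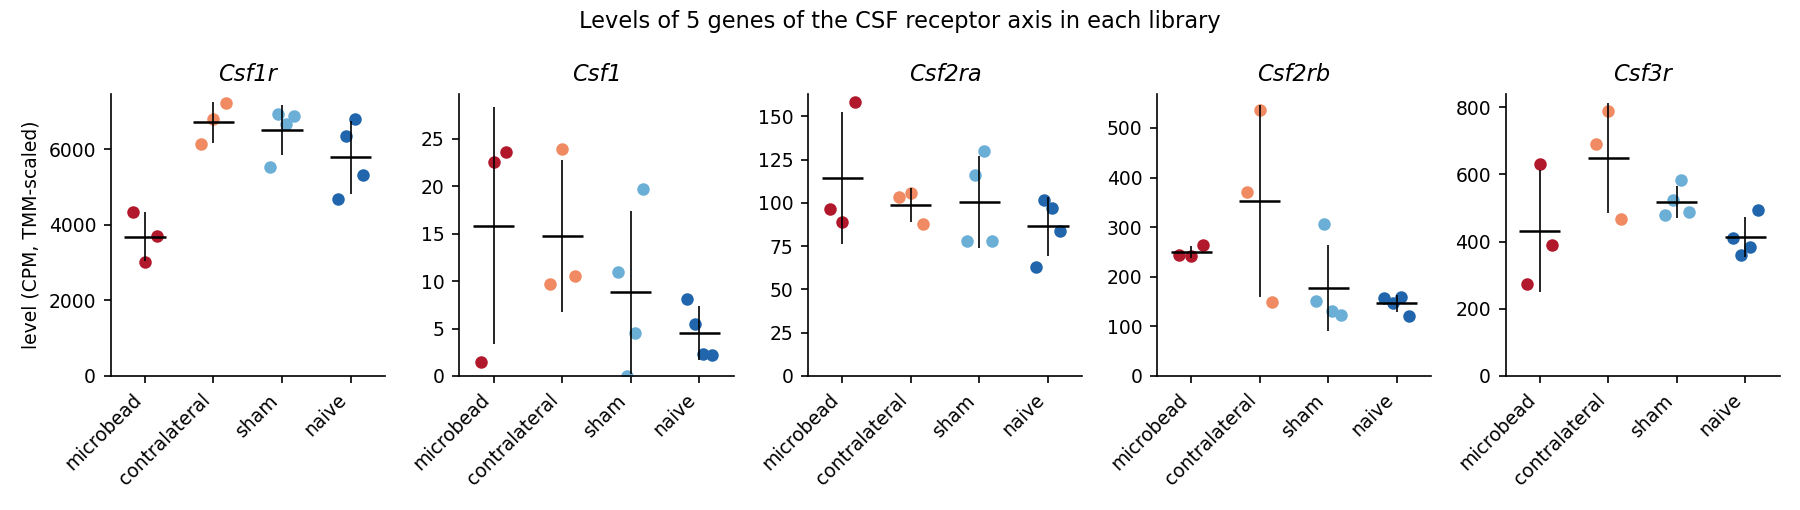
Level of each of the 5 tested genes in every library (points, CPM scaled by TMM factors, linear axes from 0), with the group mean (bar) and SD (line, cut at 0). For Csf1r the 3 microbead libraries lie at 3028 to 4326 CPM, below all 11 other libraries.

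Csf1r was by far the most abundant member. Its median over the 14 libraries was 1597 FPKM, against 203 for Csf3r, 59.4 for Csf2ra, 39.0 for Csf2rb and 3.73 for Csf1. Ranked by FPKM among all genes of a library, Csf1r stood between 145 and 174 in the microbead libraries and between 26 and 46 in the other 11. The range of Csf2rb, 27.5 to 99.7 FPKM, covered that of Csf2ra, 41.7 to 86.1, whereas Csf3r (104 to 255) lay above both ranges and Csf1 (at most 7.55) below them. Within libraries, Csf2ra was above Csf2rb except in contralateral 1 (56.8 against 72.0 FPKM) and contralateral 2 (56.0 against 99.7). Csf1r lies on chromosome 18 (61100598 to 61132149, + strand, mm10), and its length in the files was 3880 to 3915 bases in every library, near the shorter of its 2 listed transcripts (3870 and 4701 bases). The length used to scale it therefore hardly varied.

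Csf1r read 4326, 3028 and 3710 CPM in the microbead libraries. The contralateral libraries had 6128, 6804 and 7211 CPM, the sham libraries 5517, 6925, 6668 and 6870, and the naive libraries 4680, 6356, 6791 and 5327. Every microbead library was below every library of the 3 other groups, the lowest of which, naive 1, had 4680 CPM. Of all genes tested, 1.11% were lower in this way in all 3 microbead libraries. The deposited FPKM kept the same separation, with 703 to 1227 in the microbead libraries and 1340 to 2251 in the others.

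Group means were 3688 ± 649 CPM in the microbead, 6714 ± 547 in the contralateral, 6495 ± 661 in the sham and 5789 ± 961 in the naive libraries (SD, n = 3, 3, 4 and 4). From high to low the order was contralateral, sham, naive and microbead, and the first 3 overlapped library by library. Against sham the log2 fold change of microbead was -0.82 (SE 0.20, 95% interval -1.23 to -0.40, adjusted p = 0.104), a level 0.568 times that of sham. Against naive it was -0.65 (SE 0.20, interval -1.06 to -0.24, adjusted p = 0.196), and against contralateral -0.86 (SE 0.21, interval -1.30 to -0.43, adjusted p = 0.111). None of these passed, although each interval lay below 0, and by p Csf1r ranked 86, 286 and 77 among the 14279 genes. The joint test for any difference among the 4 groups gave an adjusted p of 0.200.

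The 3 microbead comparisons share their microbead libraries, so they are not independent of each other. The other comparisons of Csf1r were small. Contralateral against sham had a log2 fold change of 0.05 (SE 0.19, interval -0.36 to 0.46), contralateral against naive 0.21 (SE 0.19, interval -0.19 to 0.62) and sham against naive 0.17 (SE 0.18, interval -0.21 to 0.54), each with an adjusted p of 1. The first of these changed sign under other settings, so its direction was not settled.

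**Figure D2:**
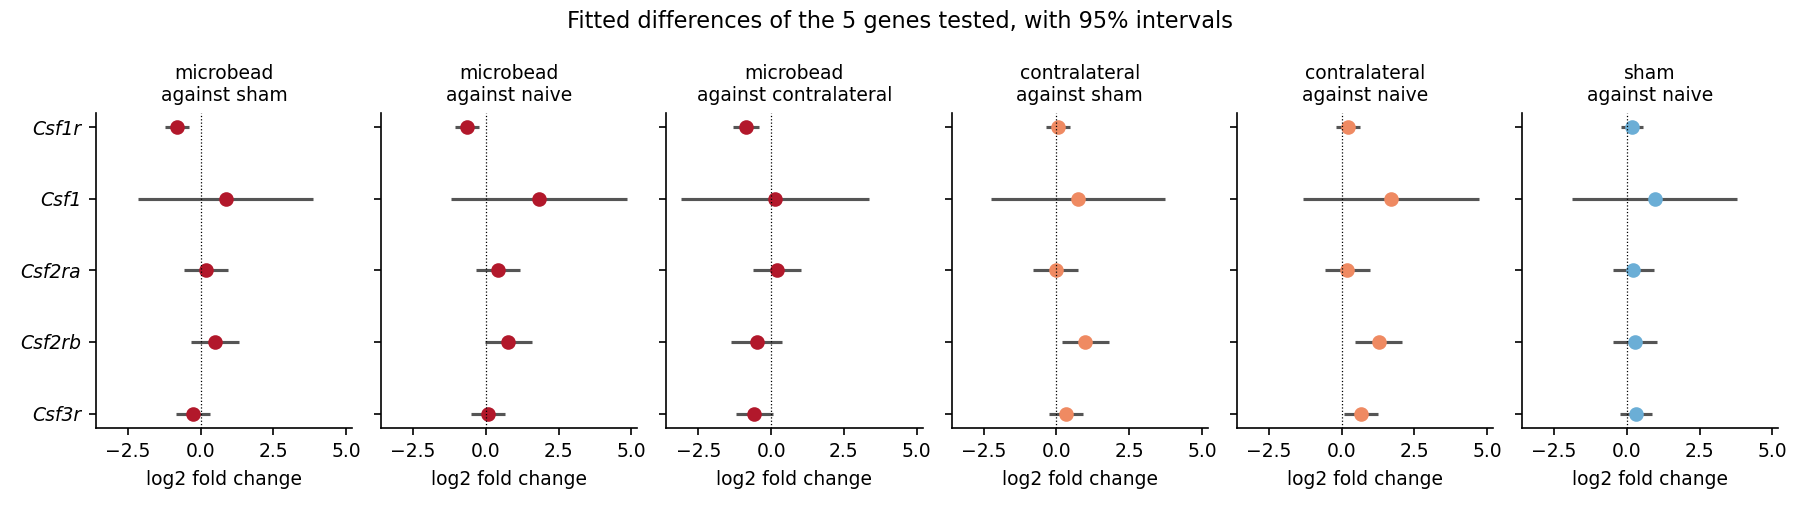
Log2 fold change (points) and 95% interval (lines) of the 5 tested genes in the 6 comparisons, named group first over its counterpart. In the microbead panels only the Csf1r interval lies wholly below 0, and the Csf1 intervals span more than 5 log2 units.

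Whether Csf1r passed depended on the filter and the tool. With every gene of at least 1 read kept, the adjusted p was 0.00421 against sham, 0.0149 against contralateral and 0.0552 against naive, with log2 fold changes of -0.86, -0.83 and -0.69. Over all genes, too, more passed in each of these comparisons without the filter. The DESeq2 Wald test gave 0.0531, 0.0428 and 0.164 for Csf1r in the same comparisons. The direction was the same in all 41 alternatives of the 3 comparisons, where the log2 fold change ran from -0.97 to -0.70 against sham, from -0.81 to -0.51 against naive and from -0.99 to -0.70 against contralateral. Leaving out any 1 library gave an adjusted p of 0.0917 or more.

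**Figure D3:**
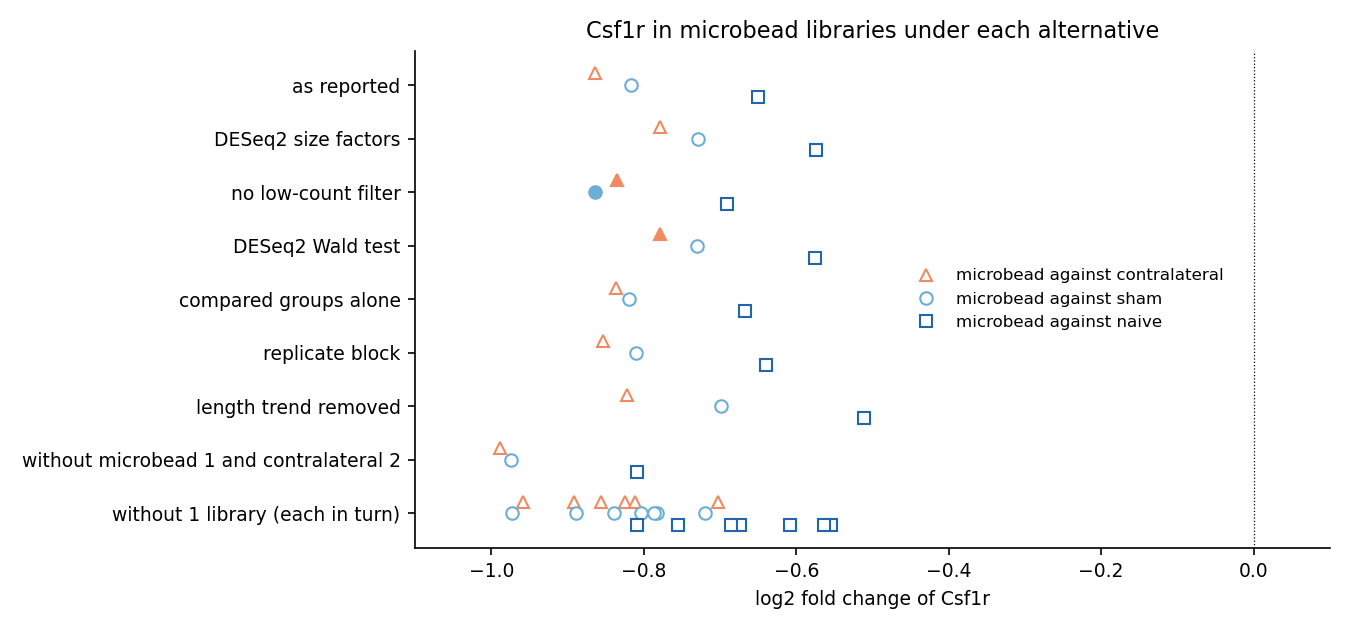
Log2 fold change of Csf1r in microbead against contralateral (triangles), sham (circles) and naive (squares) as reported and under each alternative, with filled symbols where the adjusted p is below 0.05. The 3 filled symbols are sham and contralateral without the low-count filter and contralateral by the DESeq2 Wald test, and every symbol lies left of 0.

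The length trend moved with the same libraries as Csf1r. Over the 2892 tested genes of 3000 to 5000 bases, a range that holds Csf1r, the median log2 fold change was -0.30 in microbead against sham, -0.38 against naive and -0.23 against contralateral. Over all genes it was -0.12, -0.14 and -0.08. With a smooth trend on transcript length removed from every library, Csf1r stood at -0.70 against sham (SE 0.20, adjusted p = 0.465), -0.51 against naive (SE 0.20, adjusted p = 0.537) and -0.82 against contralateral (SE 0.21, adjusted p = 0.198). In that fit the median over all genes was -0.23 against sham, -0.25 against naive and -0.17 against contralateral. Beyond this fit, the part of the length trend in the Csf1r difference was not tested.

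**Figure D4:**
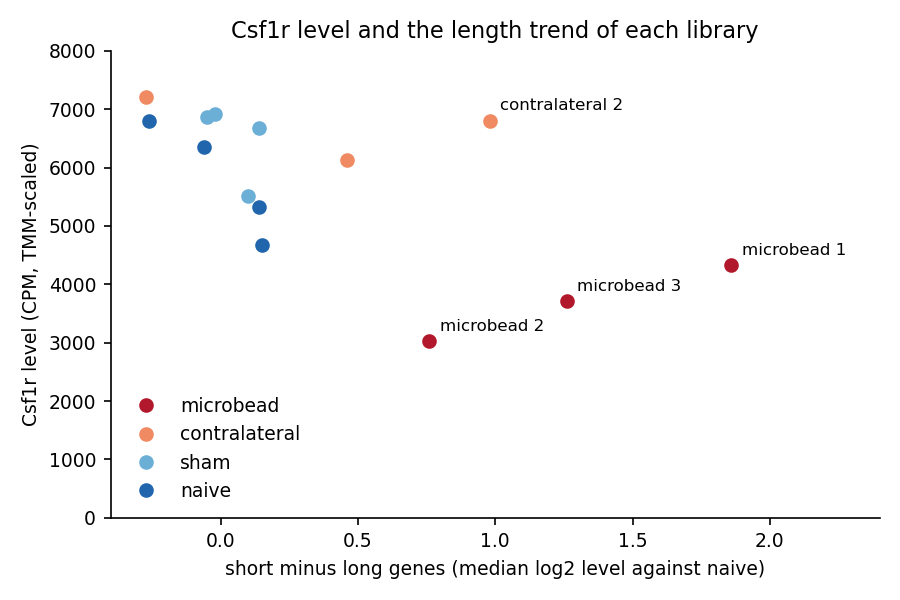
Csf1r level (CPM, linear axis from 0) against the length trend of each library, the median log2 level against naive of genes up to 1000 bases minus that of genes over 4000 bases. The microbead libraries run from 0.76 to 1.86 on the horizontal axis with 3028 to 4326 CPM, and contralateral 2 lies among them at 0.98 with 6804 CPM.

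Without the libraries with reads in fewer than 12000 genes (microbead 1 and contralateral 2), the log2 fold change of Csf1r was -0.97 against sham (SE 0.21, adjusted p = 0.137), -0.81 against naive (SE 0.21, adjusted p = 0.139) and -0.99 against contralateral (SE 0.24, adjusted p = 0.169). Each was further from 0 than with those libraries. In a sorted bulk sample, fewer cells of a type and less RNA per cell cannot be told apart.

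Other microglial genes stood lower in the same libraries. Of 8 microglia markers, 7 had a log2 fold change below 0 in microbead against sham (median -0.57), 7 against naive (-0.57) and 7 against contralateral (-0.64), and none passed in edgeR. The medians over all genes were -0.12, -0.14 and -0.08. The DESeq2 Wald test called P2ry12 and Cx3cr1 lower against sham, P2ry12 against naive and Cx3cr1 against contralateral. It called 3.6%, 4.59% and 5.11% of all genes with an adjusted p in these comparisons. Cx3cr1, the fractalkine receptor, read 2264, 2106 and 3626 CPM in the microbead libraries, 5363 to 6072 in the contralateral, 4820 to 5822 in the sham and 3456 to 5300 in the naive libraries. Its log2 fold change against sham was -1.01 (SE 0.22, adjusted p = 0.0745). The summed level of the 8 markers was 9944 to 28182 CPM in the microbead, 18319 to 30767 in the contralateral, 25571 to 28634 in the sham and 16611 to 27277 in the naive libraries.

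Markers of border-associated macrophages, which also carry CSF1R, had few reads next to these levels. The 6 markers summed to 0 to 18.4 CPM in the microbead libraries, with Cd163, Lyve1 and Cbr2 at 0 in all 3, to 13.4 to 209 CPM in the contralateral, 21.8 to 156 in the sham and 21.3 to 110 in the naive libraries. Cbr2 was also at 0 in all contralateral and naive libraries. None of the markers passed in edgeR. DESeq2 called Cd163 lower in microbead against sham, naive and contralateral, beside 3.6%, 4.59% and 5.11% of all genes with an adjusted p. Cd163 averaged 4.67 ± 3.61 CPM in the sham and 0.701 ± 1.05 in the naive libraries. Its contralateral mean, 15 ± 26 CPM, came from the library at 45.1. The part of these macrophages in the Csf1r difference was not tested.

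Cx3cr1 was also among the 5 genes whose pattern over the 14 libraries was most like that of Csf1r. Pearson's r on log2 CPM, as a description over libraries that share a depth and a length trend, was 0.931 for Wdr48, 0.913 for Insig2, 0.910 for Fto, 0.905 for Cx3cr1 and 0.904 for Tspan9, out of 8126 candidates with a median r of 0.04. Only Cx3cr1 was of comparable abundance, with means of 2665 CPM in the microbead, 5632 in the contralateral, 5356 in the sham and 4505 in the naive libraries. Wdr48 and Tspan9, in contrast, averaged 1.27 and 0.772 CPM in the microbead libraries and 19.3 to 41.8 CPM in the other groups.

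Of the ligands, Csf1 was read at a low level in 13 of 14 libraries. The gene lies on chromosome 3 (107741048 to 107760469, - strand, mm10). It had 1.44, 22.5 and 23.6 CPM in the microbead libraries, 9.70, 24.0 and 10.6 in the contralateral, 10.9, 0, 4.55 and 19.8 in the sham, and 8.14, 5.47, 2.31 and 2.22 in the naive libraries. All 3 contralateral libraries were above all 4 naive ones, as were 2.49% of all genes, and the microbead libraries overlapped with every other group. In microbead 1 the level rested on 2 reads, and in sham 2 the count of 0 allows up to 0.211 CPM, from 3 reads as the limit of a count of 0.

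Csf1 had a log2 fold change of 0.86 for microbead over sham (SE 1.43, interval -2.14 to 3.86), 1.82 against naive (SE 1.44, interval -1.21 to 4.85) and 0.12 against contralateral (SE 1.54, interval -3.11 to 3.35), with adjusted p-values of 0.926, 0.726 and 0.994. Contralateral against naive had 1.70 (SE 1.44, adjusted p = 1). A difference of several-fold in either direction was thus not detectable for this ligand at its depth. The difference from contralateral changed sign when 1 of 4 libraries was left out (-0.21 without microbead 3, as the lowest).

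The transcript length behind the Csf1 values was not stable. The files list 7 Csf1 transcripts of 773 to 4176 bases, and the length used for scaling ran from 932 bases in naive 4 to 4019 bases in contralateral 2. Naive 3 and naive 4 had nearly the same CPM, 2.31 and 2.22, yet 1.33 and 3.51 FPKM, with lengths of 2276 and 932 bases. FPKM and CPM therefore rank libraries differently for this gene. Genes of most like pattern to Csf1 were Glb1l (r = 0.910), Itga5 (0.852) and Spryd4 (0.837).

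Il34 (chromosome 8, 110741829 to 110805924, - strand, mm10) had 7 reads in all libraries together. Of these, 6 were in contralateral 3 (0.384 CPM) and 1 in sham 3 (0.0759 CPM). The other 12 libraries, with all 3 microbead and all 4 naive libraries among them, had 0 reads. A count of 0 allows up to 2.15, 0.335 and 0.264 CPM in the microbead libraries, and no fold change is given. The limits cover counting error only, since reads without molecular identifiers can be copies of 1 molecule.

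Il34 is made by neurons, and reads of retinal neurons were present at the same time. The 9 rod photoreceptor genes summed to 399 to 3775 CPM in the microbead libraries, 2011 to 3422 in the contralateral, 732 to 1488 in the sham and 208 to 3098 in the naive libraries. The 8 ganglion cell genes summed to 4.92 to 28.8 CPM in the microbead libraries, 0.380 to 4.73 in the contralateral, 2.79 to 9.02 in the sham and 3.53 to 14.9 in the naive libraries. In the microbead, contralateral and sham groups alike, 7 of the 8 were at 0 in every library, so the sums there were Rbpms alone. In the naive group 4 of the 8 were at 0 in every library.

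Csf2ra, the alpha subunit that binds GM-CSF, had overlapping levels in the 4 groups. It lies on chromosome 19 (61223957 to 61228429, - strand, mm10). Its levels were 96.2, 88.8 and 158 CPM in the microbead, 103, 105 and 87.6 in the contralateral, 78.0, 116, 130 and 77.8 in the sham, and 63.2, 101, 97.2 and 83.7 in the naive libraries. Microbead 3 was the highest of the 14 libraries. The log2 fold change of microbead was 0.19 against sham (SE 0.36, interval -0.57 to 0.95), 0.41 against naive (SE 0.36, interval -0.35 to 1.17) and 0.21 against contralateral (SE 0.39, interval -0.61 to 1.03), with adjusted p-values of 0.941, 0.771 and 0.887. These intervals leave room for differences up to about 2-fold. The differences from sham and contralateral changed sign without microbead 3 (-0.13 and -0.04).

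The ratio of Csf1r to Csf2ra separated the microbead libraries from all others, as Csf1r alone did. The share of genes that give such a ratio with Csf1r was not determined. In FPKM, Csf1r over Csf2ra was 10.1 to 19.8 in the microbead libraries, 26.0 to 35.6 in the contralateral, 22.3 to 38.3 in the sham and 27.1 to 32.1 in the naive libraries. Csf2ra, at 1849 bases, is a much shorter transcript than Csf1r, and short transcripts stood relatively higher in microbead libraries. The part of the length trend in this ratio was not tested. Csf1r over Csf3r, in contrast, overlapped in all groups, with 3.46 to 11.8 in the microbead, 5.92 to 11.1 in the contralateral, 7.77 to 9.47 in the sham and 7.26 to 12.2 in the naive libraries. Csf1r over Csf2rb was 15.4 to 22 in the microbead libraries and overlapped with contralateral (15.8 to 59.9), but not with sham (28.2 to 70) or naive (36.6 to 54.1). Over Csf2rb2 it was 41 to 60.1 and overlapped with contralateral (38 to 623) and sham (48.6 to 87.8), but not with naive (61.1 to 376). Ier3 (r = 0.812), Pigu (0.751) and Slc3a2 (0.746) followed Csf2ra most closely over the 14 libraries.

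Csf2rb, the shared beta subunit, has a near copy in the mouse, Csf2rb2, which encodes the beta subunit specific to IL-3. Both lie on chromosome 15, Csf2rb at 78325752 to 78353847 on the + strand and Csf2rb2 at 78282507 to 78305721 on the - strand (mm10). Their coding sequences of 2691 and 2637 bases are 95.2% identical over 2631 aligned bases, with 126 differences and a longest identical stretch of 242 bases. The start of each coding sequence, bases 1 to 120 of the GENCODE M21 transcripts, is shown as an example of how alike the genes are. Capitals mark the 4 bases that differ.
Csf2rb: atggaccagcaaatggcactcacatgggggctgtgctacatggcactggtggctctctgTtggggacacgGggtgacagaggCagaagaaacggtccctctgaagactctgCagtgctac
Csf2rb2: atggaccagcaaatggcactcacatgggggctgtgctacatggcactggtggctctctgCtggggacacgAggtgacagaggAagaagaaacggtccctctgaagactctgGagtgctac
Over the whole transcripts, 18.9% of the 50-base words of Csf2rb also occur in Csf2rb2, and 19% the other way. The sources used here do not say how such reads were split, and each gene's own level is uncertain to that extent.

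Csf2rb had 243, 243 and 263 CPM in the microbead libraries. Contralateral libraries had 372, 536 and 150 CPM, sham libraries 150, 306, 131 and 122, and naive libraries 158, 148, 158 and 122. All 3 microbead libraries were above all 4 naive libraries, as were 4.85% of all genes, while sham 2 and contralateral 1 and 2 were higher still. The microbead values were also the most alike, with a coefficient of variation of 4.73%, against 55.0% in the contralateral, 48.8% in the sham and 11.7% in the naive libraries.

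The log2 fold change of Csf2rb in the microbead was 0.77 against naive (SE 0.39, interval -0.04 to 1.58, adjusted p = 0.494), 0.50 against sham (SE 0.39, interval -0.32 to 1.31, adjusted p = 0.743) and -0.50 against contralateral (SE 0.42, interval -1.37 to 0.38, adjusted p = 0.683). Its largest difference was contralateral against naive, at 1.27 (SE 0.39, interval 0.46 to 2.08, unadjusted p = 0.00409, adjusted p = 0.949). Contralateral against sham had 0.99 (SE 0.39, interval 0.18 to 1.80, unadjusted p = 0.0190, adjusted p = 0.963). Both leaned on contralateral 2, a library with reads in few genes, without which they were 0.79 and 0.51 when microbead 1 was left out as well. Sham against naive was 0.28 (SE 0.36) with sham 2 and -0.12 without it. The joint test among the 4 groups had an unadjusted p of 0.0189 and an adjusted p of 0.442.

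Csf2rb2 had 86.2, 81.2 and 108 CPM in the microbead libraries, 193, 13.2 and 98.7 in the contralateral, 136, 144, 119 and 94.1 in the sham, and 91.2, 108, 124 and 16.9 in the naive libraries. Contralateral 2 and naive 4 stood far below the rest of their groups. Of the reads of the pair, Csf2rb held 97.6% in contralateral 2 (exact 95% binomial interval 97.0 to 98.1%, counting error only) and 87.8% in naive 4 (86.1 to 89.3%). In the other 12 libraries its share was 52.4 to 74.9%, with 70.9 to 74.9% in the microbead libraries and 52.4 to 68.0% in the sham libraries.

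**Figure D5:**
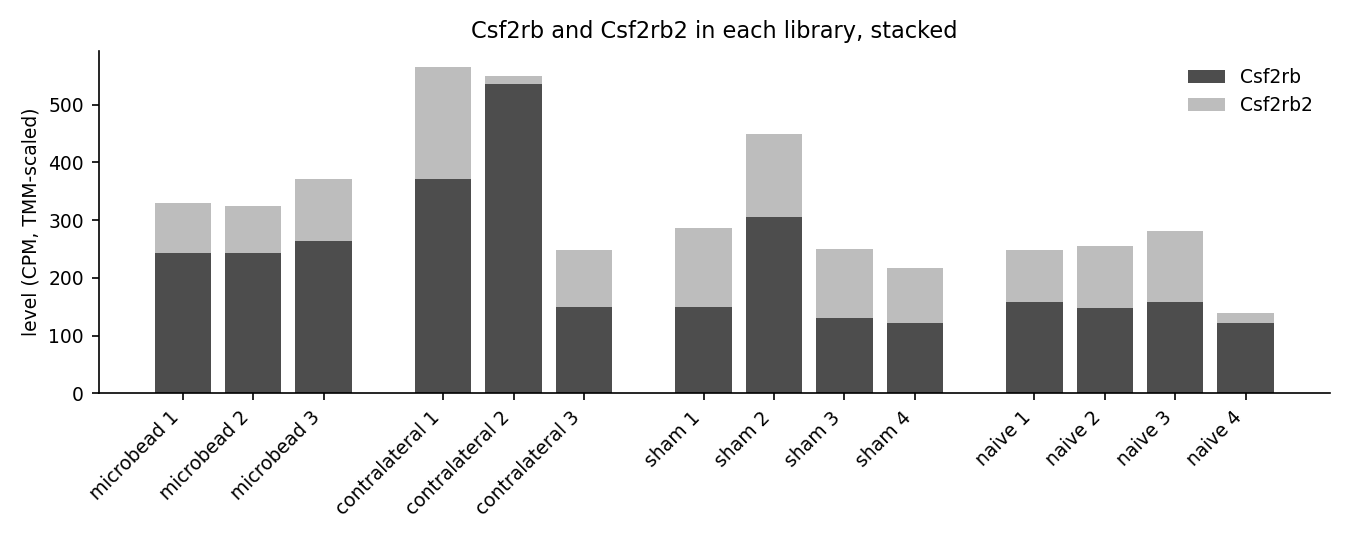
Csf2rb (dark) and Csf2rb2 (light) in each library, stacked (CPM scaled by TMM factors, axis from 0). The Csf2rb2 part nearly vanishes in contralateral 2 and naive 4, at 13.2 and 16.9 CPM, and the pair sums to 324 to 372 CPM in the microbead libraries.

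Adding the reads of both genes avoids the question of how they were split. The pair summed to 330, 324 and 372 CPM in the microbead libraries, 565, 550 and 249 in the contralateral, 287, 449, 250 and 216 in the sham, and 249, 255, 282 and 139 in the naive libraries. All microbead libraries stayed above all naive libraries. The fitted differences were smaller than for Csf2rb alone, except in sham against naive (0.38, SE 0.31, beside 0.28 for Csf2rb alone). Microbead had 0.56 against naive (SE 0.34, adjusted p = 0.575) and 0.19 against sham (SE 0.34, adjusted p = 0.936). Against contralateral it had -0.41 (SE 0.36, adjusted p = 0.704). Contralateral had 0.98 against naive (SE 0.34, adjusted p = 0.948). Against sham it had 0.6 (SE 0.34, unadjusted p = 0.0918, adjusted p = 0.964). This sum was chosen after the data had been seen.

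Monocytes and dendritic cells carry the GM-CSF receptor as well. The 8 monocyte markers summed to 0 to 159 CPM in the microbead libraries, 0 to 137 in the contralateral, 0 to 82.0 in the sham and 2.30 to 32.1 in the naive libraries, with Ly6c2 at 0 in every library. Fn1, a fibronectin gene, averaged 49.9 ± 56.6 CPM in the microbead libraries, 0.149 ± 0.259 in the contralateral, 5.69 ± 6.98 in the sham and 0 in the naive libraries (SD, n = 3, 3, 4 and 4). S100a4, a calcium-binding protein gene, averaged 18 ± 16.3 CPM in the microbead, 0.789 ± 1.37 in the contralateral, 5.37 ± 8.65 in the sham and 0 in the naive libraries. F13a1, in contrast, averaged 0.0293 ± 0.0507 CPM in the microbead, 33.4 ± 57.8 in the contralateral, 23.9 ± 29.7 in the sham and 7.04 ± 13.2 in the naive libraries. Of the 8 markers 6 were tested, 4 of them with a log2 fold change above 0 and 2 below 0 in each microbead comparison. None passed in edgeR, while DESeq2 called S100a4 higher against naive, beside 4.59% of all genes with an adjusted p. The 5 dendritic cell markers summed to 8.14 to 51.0 CPM in the microbead, 1.52 to 26.7 in the contralateral, 21.9 to 115 in the sham and 2.71 to 11.2 in the naive libraries, with Clec9a at 0 in all microbead libraries. Cd209a ranged from 0 to 46.4 CPM in the microbead libraries and from 0 to 85.5 in the sham libraries, and was at 0 in all contralateral and naive libraries. Xcr1 ranged from 0 to 46.0 CPM in the microbead, 0 to 6.52 in the contralateral, 0 to 9.16 in the sham and 0 to 7.32 in the naive libraries. None of the 4 tested dendritic cell markers passed in edgeR. DESeq2 called Cd209a higher in microbead against naive and against contralateral and in sham against naive, and lower in contralateral against sham. It called 4.59%, 5.11%, 0.188% and 0.426% of all genes with an adjusted p in these comparisons. The sham mean of Cd209a, 21.4 ± 42.7 CPM, came from the library at 85.5, so both sham calls rested on that library. The marker Zbtb46 averaged 1.66 ± 2.32 CPM in the microbead, 5.13 ± 7.61 in the contralateral, 24.9 ± 4.74 in the sham and 5.79 ± 5.28 in the naive libraries. The part of both cell types in the Csf2rb levels was not tested. H2-DMa, a chaperone subunit of antigen presentation, followed Csf2rb most closely (r = 0.894), before Nupr1 (0.844) and Cux1 (0.843).

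Csf3r, the G-CSF receptor, was the second most abundant member. It lies on chromosome 4 (126024550 to 126044440, + strand, mm10). Its levels were 274, 631 and 391 CPM in the microbead, 690, 788 and 468 in the contralateral, 479, 524, 582 and 488 in the sham, and 412, 359, 383 and 495 in the naive libraries. The microbead libraries spanned from below to above all sham and naive libraries, whereas sham and contralateral libraries lay above all naive libraries but naive 4.

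Microbead against sham had a log2 fold change of -0.26 (SE 0.28, interval -0.85 to 0.33, adjusted p = 0.860), against naive 0.07 (SE 0.28, interval -0.52 to 0.66, adjusted p = 0.976), and against contralateral -0.58 (SE 0.30, interval -1.21 to 0.05, adjusted p = 0.467). Without microbead 2 the 3 values were -0.66, -0.33 and -0.91. Against sham the value was -0.04 without microbead 1, and against contralateral it was -0.17 without microbead 1 and contralateral 2. Contralateral against naive had 0.65 (SE 0.28, interval 0.07 to 1.24, unadjusted p = 0.0305, adjusted p = 0.949), and 0.46 without microbead 1 and contralateral 2. Csf3r and Csf2rb were both highest in contralateral 2 and contralateral 1 among their group, and their correlation over the 14 libraries was 0.432 (Pearson, as a description).

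Markers of neutrophils, the best known carriers of the G-CSF receptor, had almost no reads. The 8 neutrophil markers summed to at most 0.615 CPM in the microbead, 0.512 in the contralateral, 0.281 in the sham and 0.271 in the naive libraries, with S100a8, S100a9, Retnlg, Mmp8 and Camp at 0 in all 14 libraries. The Csf3r level was at least 274 CPM in each library. Cep350 (r = 0.904), Tcirg1 (0.901) and Srcap (0.885) had the most like pattern, and all 3 had their highest group mean in the contralateral libraries.

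The cytokines that these receptors bind had almost no reads. Csf2 (GM-CSF), Csf3 (G-CSF) and Il3 had 0 reads in all 14 libraries, and Il5 reached 0.893 CPM in 1 sham library and 0.0749 CPM in 1 naive library. The alpha subunit Il5ra had no reads, and Il3ra, the alpha subunit of the IL-3 receptor, had 0.718, 4.57 and 0.791 CPM in the microbead, 0.380, 0 and 0.768 in the contralateral, 1.12, 1.33, 11.7 and 0 in the sham, and 7.19, 0.225, 0.239 and 0.411 in the naive libraries. Of the other class III receptor tyrosine kinases, the family of Csf1r, none of 4 (Kit, Flt3, Pdgfra and Pdgfrb) had enough reads to be tested, and together they summed to at most 6.25 CPM in any library.

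Downstream of CSF1R, 28 signalling genes were tested, and none passed in edgeR in any comparison. Their median log2 fold change was -0.01 in microbead against sham, 0.00 against naive and -0.10 against contralateral, beside -0.12, -0.14 and -0.08 over all genes. At an unadjusted p below 0.05, 1 was higher and 3 were lower against sham, 2 higher and 4 lower against naive, and 1 higher and 5 lower against contralateral, beside 9.75%, 10.5% and 11.5% of all genes in either direction. The DESeq2 Wald test called 1 higher against sham and 1 higher against naive, both Tyrobp, and 3 lower against contralateral, the docking protein gene Gab2, the PI3-kinase gene Pik3cg and the kinase gene Akt1, and none in the 3 comparisons without microbead. It called 3.6%, 4.59% and 5.11% of all genes with an adjusted p in the same microbead comparisons.

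Gab2, whose product recruits PI3-kinase to active receptors, had the smallest p of the list. It read 43.1, 62.1 and 58.3 CPM in the microbead libraries, 144, 411 and 104 in the contralateral, 90.4, 152, 109 and 126 in the sham, and 125, 119, 111 and 120 in the naive libraries. All microbead libraries were below all others, as for 1.11% of all genes. The log2 fold change was -2.01 against contralateral (SE 0.45, adjusted p = 0.0845) and -1.12 against both sham and naive (SE 0.42, adjusted p = 0.396 and 0.361). Contralateral 2 alone held 411 CPM. The value against contralateral passed without contralateral 3 (-2.34, adjusted p = 0.0263) and by the DESeq2 Wald test (-1.95, adjusted p = 0.00183).

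Tyrobp, which encodes the adaptor DAP12 that links CSF1R to SYK, had a higher mean in the microbead libraries. Its levels were 3242, 1336 and 1460 CPM in the microbead, 1605, 1445 and 661 in the contralateral, 877, 872, 987 and 830 in the sham, and 994, 827, 752 and 1068 in the naive libraries. The microbead libraries were above all sham libraries, as for 5.11% of all genes, and above all naive libraries, as for 4.85%. Microbead 1 was more than double the next. The log2 fold change was 1.17 against sham (SE 0.31, adjusted p = 0.143), 1.14 against naive (SE 0.31, adjusted p = 0.139) and 0.70 against contralateral (SE 0.34, adjusted p = 0.441). Tyrobp is a short gene of 576 bases, and with the length trend removed the value against sham was -0.28 (adjusted p = 0.811). The median over all genes in that fit was -0.23.

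The 13 genes of cytokine receptor signalling, among them Jak2, Stat5a and Socs3, had none that passed in edgeR, and none of the 12 with an adjusted p in DESeq2 passed there. Their median log2 fold change was 0.69 in microbead against sham, 0.38 against naive and 0.36 against contralateral, with 9, 11 and 9 of 13 above 0. The medians over all genes were -0.12, -0.14 and -0.08. Among the 13, Cish, Socs1, Socs2 and Pim1 averaged at most 9.36 CPM in any group, and their SEs in the microbead comparisons were 1.42 to 3.73. Bcl2l1, the anti-apoptotic BCL-XL gene and a known STAT5 target, had the smallest p. It read 39.5, 25.7 and 102 CPM in the microbead libraries, 153, 88.3 and 141 in the contralateral, 82.7, 190, 116 and 130 in the sham, and 120, 151, 167 and 154 in the naive libraries. Its log2 fold change was -1.40 against naive (SE 0.45, adjusted p = 0.248) and -2.21 without microbead 3 (adjusted p = 0.0309). Cish, a feedback inhibitor induced by STAT5, had 27.7 CPM in microbead 2, 5.12 in contralateral 3 and 9.04 in sham 1, and 0 in the other 11 libraries.

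Of 11 transcription factors known to act on Csf1r, 10 were tested and none passed in edgeR or in DESeq2. Their median log2 fold change was -0.15 in microbead against sham, -0.13 against naive and -0.09 against contralateral. Spi1 (PU.1), the main activator of Csf1r in the myeloid lineage, read 57.5, 122 and 222 CPM in the microbead libraries, 154, 147 and 109 in the contralateral, 147, 112, 167 and 233 in the sham, and 293, 263, 271 and 235 in the naive libraries. Every naive library was above every library of the other 3 groups, though narrowly for sham, with 235 CPM in naive 4 and 233 in sham 4. Of all genes, 6.98% were separated this way from microbead and 3.73% from contralateral. For sham and naive, 2.98% of all genes did not overlap in either direction. The share separated from all 3 groups at once was not determined. The log2 fold change of microbead against naive was -0.98 (SE 0.39, adjusted p = 0.400). The same held for contralateral against naive, at -0.96 (SE 0.39, adjusted p = 0.949), and against sham the microbead value was -0.29 (SE 0.38). Fli1, an ETS factor, stood at -0.58 for microbead over sham (SE 0.35, adjusted p = 0.621).

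Among 5 genes of receptor turnover and of other IL-34 receptors, 3 were tested and none passed in edgeR. Adam17, the protease that sheds CSF1R from the cell surface, had 47.4, 54.7 and 66.4 CPM in the microbead, 134, 67 and 177 in the contralateral, 147, 125, 151 and 103 in the sham, and 89.1, 154, 151 and 162 in the naive libraries. All microbead libraries were below all others, as for 1.11% of all genes, and the nearest of the others was contralateral 2. The log2 fold change was -1.22 against sham (SE 0.38, adjusted p = 0.269), -1.30 against naive (SE 0.39, adjusted p = 0.183) and -1.16 against contralateral (SE 0.40, adjusted p = 0.293), and the DESeq2 Wald test called the second (adjusted p = 0.0246). In microbead against naive, DESeq2 called 4.59% of all genes with an adjusted p. Adam17 averages 4005 bases in the files, within the range in which the median gene stood lower. Cbl, the ubiquitin ligase that marks CSF1R for degradation, had -0.46 in microbead against sham (SE 0.32, adjusted p = 0.681). The alternative IL-34 receptors Ptprz1 and Sdc1 were too low to be tested, at most 0.615 and 2.36 CPM in any library.

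The members did not vary together over the 14 libraries. Between Csf1r and the other members, Pearson's r of log2 CPM was -0.28 for Csf1, -0.01 for Csf2ra, -0.13 for Csf2rb and 0.19 for Csf3r, given as descriptions of libraries that share depth and length trend. The highest values among the members were 0.432 for Csf2rb with Csf3r and 0.403 for Csf2ra with Csf2rb. With 5 members tested, 2 had a log2 fold change below 0 in microbead against sham, 1 against naive and 3 against contralateral.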

How the data were processed

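SMART-Seq2 libraries of sorted retinal microglia were grouped by the labels into microbead, contralateral, sham and naive. Each library has a table of expected counts, the authors' unscaled estimates of reads per gene, per the file headers. FPKM, which the authors scaled to transcript length and depth, stand in those tables and in a series-wide one. The build mm10 and the tools DESeq2 1.30.1, Salmon 1.4.0 and R 4.0.3 come from the submitters' processing notes, which give no roles here. The tool that wrote the tables and its strand setting are not given in the sources used here.

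After rounding to whole numbers, expected counts went into edgeR 4.0.16 (R 4.3.3): filterByExpr with the groups (minimum count 10), TMM factors, and one robust quasi-likelihood model with 1 coefficient per group and no covariate over all 14 libraries (10 residual degrees of freedom). Tests were two-sided, and the Benjamini-Hochberg adjustment covered all 14279 genes. Standard errors are the log2 fold change over the root of F. Log2 CPM for correlations used a prior count of 2. The procedure was tested on simulated data.

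The 6 members, the pathway and marker lists and the tests were chosen with earlier results of these data known. Named beside the members were, for each pathway list, genes past the threshold or else the 2 with the smallest p in a microbead comparison, and the genes of highest correlation with a member (mean of at least 10 CPM, 5 for Csf1r and 3 for others). Others were named after their values were seen. Replicate numbers were not used to pair libraries. Correlations of deviations between same-numbered libraries were -0.046 to 0.14. Without values for differently numbered libraries, these cannot show whether any share a mouse. Alternatives were DESeq2 1.42.0 size factors and Wald test, no filter, the compared groups alone, a replicate block, a lowess length trend (span 0.5) removed through offsets, leaving out libraries with reads in fewer than 12000 genes, leaving out each library, and, added after seeing the data, the sum of Csf2rb and Csf2rb2. Coordinates and sequences come from GENCODE M21, whose build GRCm38 is mm10.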

Additional observations from a re-analysis of the deposited data

Results flagged for a closer look

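Csf2rb read 306 CPM in sham 2, far from the other sham libraries, the nearest of which had 150 CPM. The gap was 0.847 of the range of the 4 sham libraries. Csf2rb2 was also highest in that library among sham libraries, at 144 CPM. Il34 in sham 3, at 0.0759 CPM, stood apart from 3 libraries at 0, and this value is 1 read. Chance flags about 1 in 20 groups of 4 in this way where values are normally distributed. A group with 3 libraries at 0 and 1 above 0 is always flagged, so that rate does not cover Il34.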

How the results depend on the processing

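The counts of genes called over all genes moved most with the processing. As reported they were 2 in microbead against sham, 30 against naive, 4 against contralateral, 0 in the other 3 comparisons and 32 in the joint test. Without a low-count filter they were 139, 162, 157, 22 (contralateral against sham), 21 (contralateral against naive), 14 (sham against naive) and 314. By DESeq2 tests they were 453, 567, 644, 59, 64, 26 and 478. With the compared groups alone the microbead counts were 0, 5 and 0. With the length trend removed they were 0, 2 and 0, and 2 in the joint test. Size factors of DESeq2 gave 46 for naive and 54 in the joint test, and leaving out the libraries with reads in fewer than 12000 genes gave 7 for sham, 9 for contralateral and 11 in the joint test. Leaving out 1 library gave 0 to 134 for sham, 0 to 168 for naive and 0 to 162 for contralateral, each highest without microbead 3, 0 to 21 for contralateral against sham, 0 to 11 for contralateral against naive and 5 to 94 in the joint test. The cause of these shifts was not tested.

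The fit with a replicate block called 0, 1 and 0 genes in the microbead comparisons and 1 in the joint test. The numbers mark no shared mouse in the labels, and correlations of same-numbered libraries were -0.046 to 0.14. Under the block Csf1r had -0.81 against sham, -0.64 against naive and -0.85 against contralateral, with no change of call for any member.

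Of 650 alternative values for single genes, 624 kept direction and side of the threshold, 16 changed sign and 10 passed where the reported value did not. Csf1r passed without the filter against sham (-0.864) and contralateral (-0.835), and by DESeq2 against contralateral (-0.779). Signs changed for Csf1r in contralateral against sham (-0.029 without the filter, -0.009 with the 2 groups alone), where the reported value was small. The sign also changed for Tyrobp in microbead against sham, at 1.17 as reported and -0.281 with the length trend removed. In the latter fit the median over all genes was -0.23. Leaving out 1 library gave ranges across 0 for Csf1r in contralateral against sham (-0.024 to 0.082), Csf1 in microbead against contralateral (-0.209 to 0.708), Csf2ra in microbead against sham (-0.134 to 0.337), in microbead against contralateral (-0.043 to 0.411) and in contralateral against sham (-0.129 to 0.123), Csf2rb in sham against naive (-0.124 to 0.417) and Csf3r in microbead against naive (-0.331 to 0.29).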
